A study of Homo sapiens with 24 samples.

Results

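The neuroblastoma cell lines IMR-32 and SK-N-BE(2) were compared in cultures that carried a green fluorescent protein (GFP) transgene in place of the transcription factor FOXP1. The comparison took the arrays labelled with that transgene: 4 of IMR-32 and 4 of SK-N-BE(2), 8 of the 24 arrays in the series. Each set of 4 holds 1 array at 0, 12, 24 and 72 h. In the study, the cultures were polyclonal, doxycycline switched the transgene on, and GFP cells were the controls for FOXP1 cells because the promoter was leaky. A line with its transgene is called a culture here. Whether its 4 time points were plated apart is not stated, and none was repeated. SK-N-BE(2) is a line with mutant p53. The same lines labelled FOXP1 (4 arrays each) and the line CHP-212 with GFP (4 arrays) are given only beside the GFP values. Total RNA was hybridized to one-colour oligonucleotide arrays with 43291 probes that are not control spots. The share of these with a signal well above background ran from 73.5% to 82.3% over the IMR-32 GFP arrays and from 73.6% to 78.6% over those of SK-N-BE(2). The question was which genes set one line apart from the other at the baseline against which FOXP1 was studied.

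Neuroblastoma arises from precursors of the sympathetic nervous system and the adrenal medulla, which descend from the neural crest. Cells of that lineage make noradrenaline: TH turns tyrosine into DOPA, DBH turns dopamine into noradrenaline, vesicular transporters load it, and chromaffin granules also carry neuropeptides and granins. HOX genes, which lie in 4 clusters, keep a record of position along the body axis, so cell lines often differ in which of them they express. Lines grown from different tumours also differ in the more neuronal or more mesenchymal character of the genes they express.

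Values are log2 processed signals minus the 75th percentile of the array, called relative signals here, and the line difference is the mean of the 4 IMR-32 arrays minus the mean of the 4 SK-N-BE(2) arrays. A probe was called when limma gave an adjusted p under 0.05 and the fold change was at least 2. The test took in 34004 probes, those with a signal well above background in 4 or more of the 8 arrays. Of these, 8585 (25.2%) were called, 3924 (11.5%) higher in IMR-32 and 4661 (13.7%) higher in SK-N-BE(2). Which direction held more calls changed with the scaling: after quantile normalization 4449 probes were higher in IMR-32 and 3882 higher in SK-N-BE(2). The median line difference of all probes tested was -0.19, and it was -0.06 after quantile normalization. Over the probes with a gene symbol, from which the lists come, it was -0.06 without that normalization. List medians are therefore to be read against -0.19 and -0.06. The line difference was at least 16-fold at 944 called probes, 486 higher in IMR-32 and 458 higher in SK-N-BE(2). The groups did not overlap at 8013 of the called probes (93.3%) and at 14680 of all probes tested (43.2%).

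Arrays of 1 line lay close together. Across the probes tested, Pearson correlations ran from 0.978 to 0.991 among the IMR-32 GFP arrays and from 0.976 to 0.987 among the SK-N-BE(2) GFP arrays. Between the 2 lines they ran from 0.884 to 0.905. Probes are not independent replicates, so these values only describe the arrays. The IMR-32 culture labelled FOXP1 stood apart from the IMR-32 GFP culture (0.940 to 0.957), whereas the corresponding SK-N-BE(2) cultures were closer (0.959 to 0.990). For that reason many line differences of the GFP cells, though not all, are set beside the line difference on the arrays labelled FOXP1. These arrays are separate from the GFP arrays, but in each line they lay on the same slides. On those arrays 8299 probes (24.4%) were called, and 5065 probes were called in the same direction in both comparisons (59.0% of the GFP calls and 61.0% of the calls on arrays labelled FOXP1). Another 232 probes were called in opposite directions. A direct limma test of the difference between both line differences called 3485 probes (10.2%), 2039 of them among the GFP calls. Of the 27818 tested probes above background on all 16 arrays, it called 2414 (8.68%). Where an array was not above background, the difference between both comparisons is given as a bound, or without a size where no bound could be set. Culture, subline, sample identity and transgene cannot be told apart as the source of these differences by this design. The FOXP1 probe ran as the labels say in IMR-32, as given below. From these same arrays, the study reports induction by FOXP1 of HOXC9, DBH, TH, MAP2, RET, DNER, NEFL and NPY in that line. For NPY the difference between both comparisons was not called, as given below.

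Gene symbols were known only for probes in the study's supplementary list of regulated genes, which the study chose by comparing FOXP1 with GFP cells on arrays that include these 8. The named genes are therefore no random subset. Of the 2515 tested probes with a symbol, 1310 (52.1%) were called, 649 higher in IMR-32 and 661 higher in SK-N-BE(2), and 1281 (50.9%) had line differences that differed between GFP cells and arrays labelled FOXP1. Among the 665 tested probes that the study lists for CHP-212 alone, 271 (40.8%) were called. Every count of list members below stands against these shares, and a share near 52.1% is no result about a list.

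ANTXR1, a cell-surface receptor that binds extracellular matrix, had the highest line difference among named genes well above background on all 8 arrays. Its relative signal on the IMR-32 arrays was 5.79, 5.84, 5.92 and 5.99 at 0, 12, 24 and 72 h. On the SK-N-BE(2) arrays it was -3.39, -3.97, -3.13 and -3.88. Every IMR-32 array was far above every SK-N-BE(2) array, a line difference of 9.48 ± 0.21 (SE, n = 4 and 4; 712-fold; adjusted p = 2.87e-09). NELL2, a secreted neural glycoprotein, read 4.40, 4.67, 4.64 and 4.33 in IMR-32 and -5.22, -5.12, -4.54 and -4.60 in SK-N-BE(2), a line difference of 9.38 ± 0.20 (665-fold). DHRS2, a short-chain dehydrogenase, read 5.74, 5.25, 5.21 and 4.75 against -2.03, -1.99, -1.93 and -2.05, a line difference of 7.24 ± 0.21 (151-fold). For all 3 genes the lowest IMR-32 array lay well above the highest SK-N-BE(2) array.

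The next 9 genes in this order were PHLDB2 (6.46 ± 0.22), ST6GAL2 (6.11 ± 0.22), PXDN (5.88 ± 0.21), PLEKHG4 (5.87 ± 0.39), NNAT (5.85 ± 0.32), ABCC8 (5.79 ± 0.39), SPINT2 (5.72 ± 0.42), FAT1 (5.67 ± 0.27) and PROK2 (5.59 ± 0.17). PXDN crosslinks collagen IV, ABCC8 is the sulfonylurea receptor of a potassium channel, SPINT2 inhibits serine proteases, and PROK2 is a secreted peptide. On the arrays labelled FOXP1, all 12 genes were again higher in IMR-32 and called, with line differences from 1.11 for FAT1 to 8.39 for NELL2. The 12 were picked by their GFP line difference, which by itself favours a smaller one on other arrays. The difference between both comparisons was called for 7 of the 12: ANTXR1, DHRS2, PHLDB2, PXDN and PROK2 were each further apart in the GFP cells. SPINT2 and FAT1 were so by the fit alone, since 1 SK-N-BE(2) array labelled FOXP1 was not above background and no bound could be set. For ST6GAL2 no SK-N-BE(2) array of that label was above background.

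CYB561, the granule membrane protein that feeds electrons to DBH, had the lowest line difference among named genes above background on all 8 arrays. It read -4.46, -4.02, -4.24 and -3.72 in IMR-32 and 4.86, 4.75, 4.75 and 4.38 in SK-N-BE(2). The line difference was -8.79 ± 0.20 (443-fold; adjusted p = 3.45e-09). NPY, neuropeptide Y, read -3.89, -3.53, -4.16 and -3.82 against 4.16, 4.82, 4.51 and 4.14, a line difference of -8.26 ± 0.21 (306-fold). Both genes were low on all IMR-32 arrays and high on all SK-N-BE(2) arrays, with no overlap. PTGER2, a prostaglandin E2 receptor, followed with -8.12 ± 0.18 (279-fold). The remaining genes were LOC400043 (-7.67 ± 0.18), HOXC9 (-7.45 ± 0.18), PTPRR (-7.42 ± 0.22), RGS5 (-7.13 ± 0.32), NDRG2 (-6.83 ± 0.21), EPHX2 (-6.78 ± 0.20), SH3BGRL (-6.63 ± 0.19), SCG5 (-6.29 ± 0.24) and RET (-6.14 ± 0.29). All 12 were also called lower in IMR-32 on the arrays labelled FOXP1. There the line difference of NPY (-8.05), PTGER2 (-7.39) and SCG5 (-6.54) was of like size, whereas that of HOXC9 (-1.76), LOC400043 (-2.76), PTPRR (-2.01) and RGS5 (-1.06) was far smaller. These 12 too were picked by their GFP line difference, which favours a smaller one elsewhere. The plot of the lead genes gives each array, and only genes without overlap were taken for it.

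**Figure D1:**
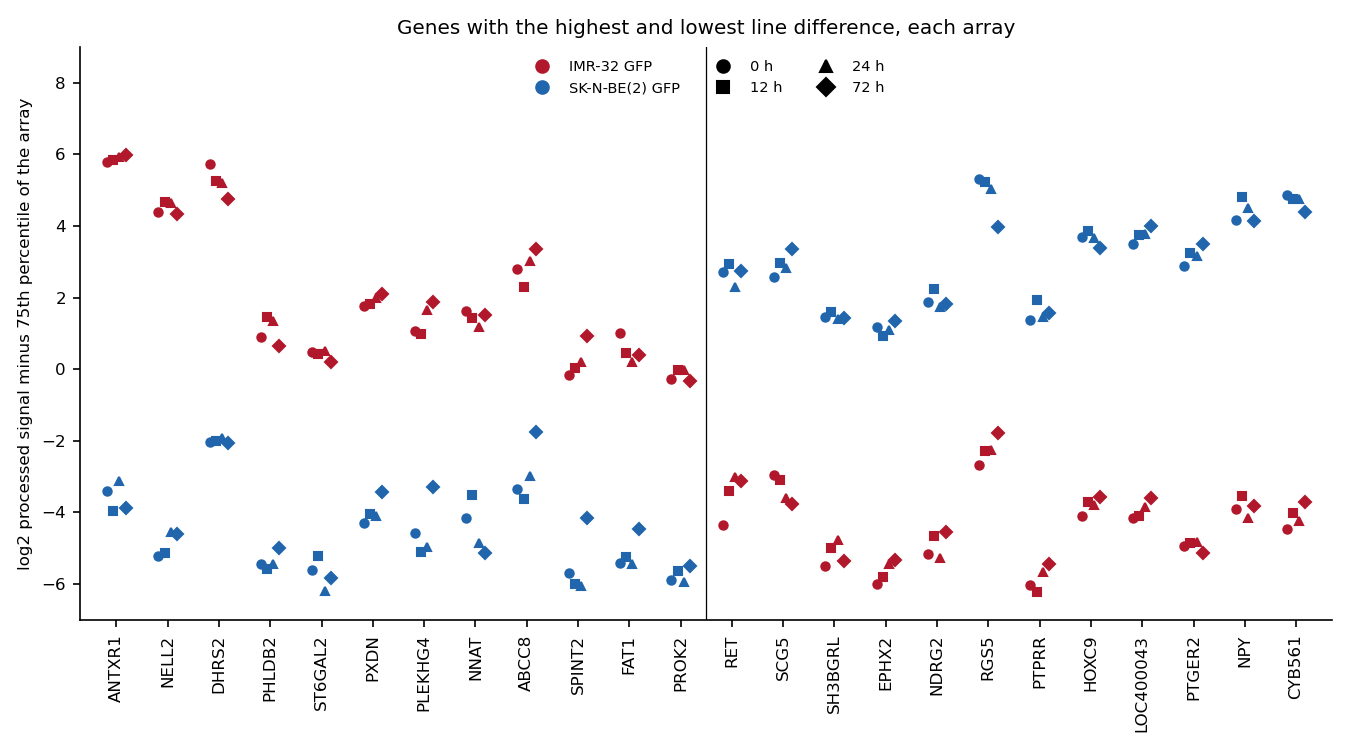
Relative signal (log2 processed signal minus the 75th percentile of the array) of 24 named genes, the 12 of highest and 12 of lowest line difference, 1 point for each array, coloured by line and shaped by time point. In each gene, as the choice requires, the 4 arrays of one line lie apart from the 4 of the other, from ANTXR1 (line difference 9.48) to CYB561 (-8.79).

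Some genes were measured in 1 line alone. A total of 552 probes were well above background on 4 of 4 IMR-32 arrays and on 0 of 4 SK-N-BE(2) arrays, and 387 showed the reverse, of which 158 and 81 had a symbol. For these, the fold is a lower bound, taken against the lowest signal that was well above background on each dim array. Where only some arrays of the dim line were above background, their number is given and the line difference is a bound too, with the other arrays set likewise. NEUROG2, a proneural transcription factor, read 1.95, 2.23, 2.99 and 2.85 in IMR-32 and was not measured above background in SK-N-BE(2), at least 462-fold higher in IMR-32. SLC25A24, a mitochondrial carrier, was at least 354-fold higher in IMR-32, ARHGAP29 at least 270-fold, LOC730125 at least 227-fold and SYTL4, a vesicle-docking protein, at least 122-fold. All 5 were called higher in IMR-32 on the arrays labelled FOXP1 too.

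Other genes showed the reverse. CPNE8, a copine, read 1.62, 1.54, 1.28 and 1.07 on the SK-N-BE(2) arrays, and no IMR-32 array was above background. It was at least 246-fold higher in SK-N-BE(2), and it was above background on 0 of 4 IMR-32 arrays labelled FOXP1 as well. NPY2R was at least 243-fold higher in SK-N-BE(2), RELN at least 153-fold, IMPA2 at least 104-fold and PPP1R9A at least 103-fold. Of these, NPY2R, RELN and PPP1R9A were well above background on 4 of 4 IMR-32 arrays labelled FOXP1, so the lack of signal was limited to the IMR-32 arrays labelled GFP. Unnamed probes reached like sizes: UKv4_A_24_P208595 (8.92 ± 0.29) and UKv4_A_24_P354689 (8.33 ± 0.28) were higher in IMR-32, and UKv4_A_23_P3866 (-9.32 ± 0.22) and UKv4_A_23_P218331 (-8.67 ± 0.21) were higher in SK-N-BE(2).

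FOXP1, the first of the marker genes, read 1.05, 1.19, 1.39 and 1.18 on the IMR-32 arrays and 3.00, 3.30, 2.87 and 2.81 on the SK-N-BE(2) arrays. Without any FOXP1 transgene, the transcript was thus lower on every IMR-32 array, with a line difference of -1.79 ± 0.17 (3.47-fold; adjusted p = 2.50e-05). In CHP-212 GFP cells it read 0.77, 1.21, 1.08 and 1.05, near the IMR-32 level. On the IMR-32 arrays labelled FOXP1 it read 2.60, 2.76, 2.66 and 2.38, already at 0 h above every GFP array of that line. SK-N-BE(2) arrays labelled FOXP1 read 2.97, 2.84, 2.63 and 2.73, within or below the range of the SK-N-BE(2) GFP arrays, so this probe was not higher on the arrays that bear the FOXP1 label in that line. The study's immunoblot shows more FoxP1 protein in FOXP1 than in GFP cells of all 3 lines after induction, SK-N-BE(2) included, and it reports a rise of TNFSF10 in SK-N-BE(2). Why the probe does not show it was not tested.

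Of the 12 genes the study names that have a symbol, 9 were tested and all 9 were called, 1 higher in IMR-32 and 8 higher in SK-N-BE(2) (median -3.05, against -0.19 over all probes). The study chose these genes on arrays that include these, so their direction is not independent evidence. DBH read -1.05, -1.36, -0.90 and 0.04 in IMR-32 and 4.48, 4.56, 4.36 and 4.86 in SK-N-BE(2). All 8 values separated by line, with a line difference of -5.38 ± 0.29 (41.6-fold; adjusted p = 4.08e-07). TH read -1.22, -1.66, -1.46 and -0.29 against 1.91, 1.77, 1.60 and 2.27, a line difference of -3.05 ± 0.30 (8.26-fold), again with no overlap. MAP2, a dendritic microtubule protein, differed by -2.74 ± 0.20 and NEFL, the light neurofilament, by -1.93 ± 0.17. RET, the receptor of glial cell line-derived neurotrophic factors, differed by -6.14, NPY by -8.26 and HOXC9 by -7.45. DAPK1, a death-associated kinase, was the 1 member higher in IMR-32, by at least 1.29, but only 1 of 4 SK-N-BE(2) arrays measured it and the call was lost with normexp background correction (0.52). PLCG2, DNER and TNFSF10 were not tested: no IMR-32 array had any of them above background, and only 1 SK-N-BE(2) array had PLCG2.

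**Figure D2:**
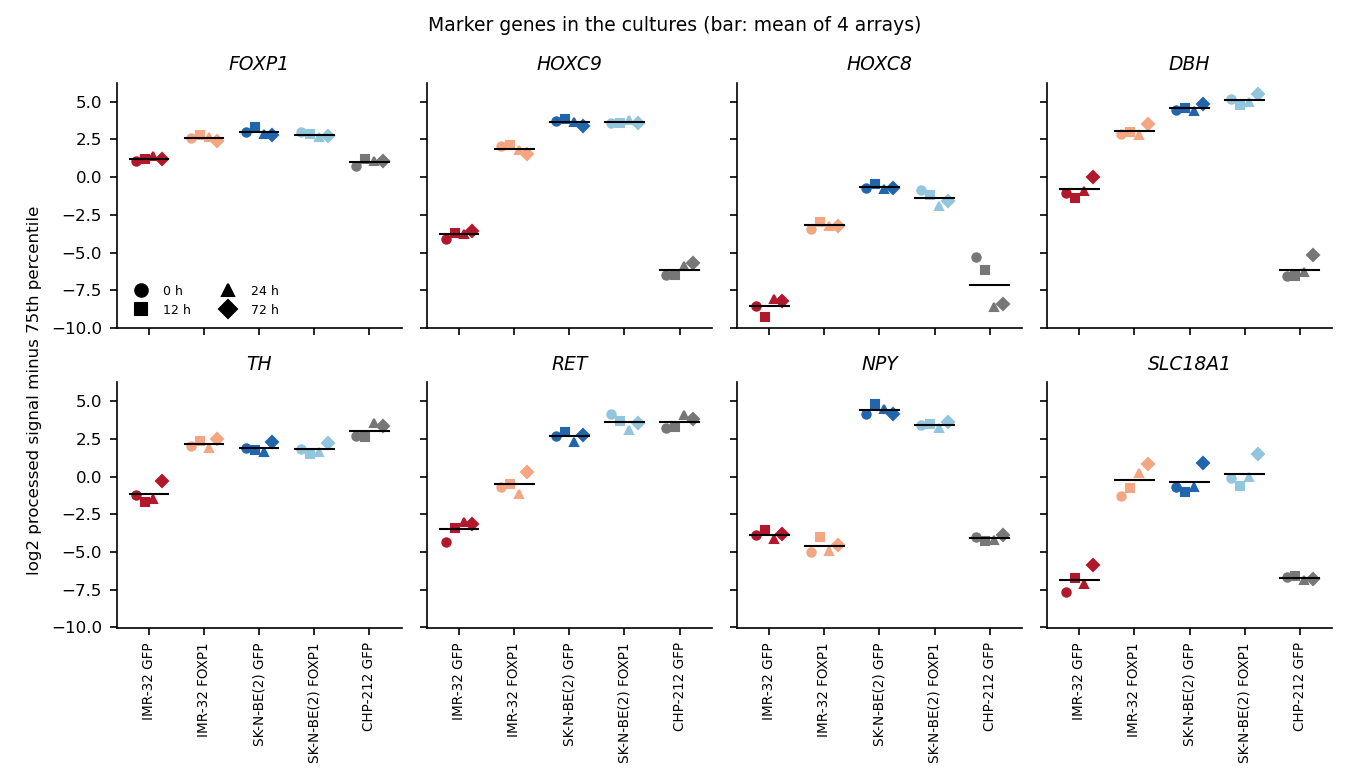
Relative signal (log2) of 8 marker genes on each array of 5 cultures of 4 arrays, with the time point as the shape and a bar at the mean. IMR-32 GFP arrays lie below both SK-N-BE(2) cultures in every panel, and for all genes but NPY the IMR-32 arrays labelled FOXP1 lie above the IMR-32 GFP arrays.

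HOX genes were lower in IMR-32 GFP cells wherever one was called. Of 14 HOX genes with a symbol, 7 were tested and 5 were called, each of them higher in SK-N-BE(2) (median -2.38, which is the fitted value of HOXC6, and -0.72 with normexp). All 5 belong to the HOXC cluster. HOXC9 read -4.11, -3.72, -3.80 and -3.58 in IMR-32 and 3.69, 3.85, 3.67 and 3.38 in SK-N-BE(2), a 175-fold difference (adjusted p = 3.74e-09). HOXC8 read -0.71, -0.45, -0.79 and -0.73 in SK-N-BE(2) and was not above background on any IMR-32 array (at least 59.7-fold). HOXC10 was likewise above background in SK-N-BE(2) alone (at least 33.8-fold). Thus the SK-N-BE(2) culture expressed 3 neighbouring genes of the cluster that were faint or unmeasured in IMR-32 GFP cells. HOXC6 had a fitted difference of -2.38 ± 0.40 (bound -1.62), with 1 of 4 IMR-32 arrays above background, and its call was lost with normexp background correction (-0.60). HOXC5, named after its values were seen, had a fitted difference of -2.37 ± 0.72 (bound -1.84; adjusted p = 0.0232) with 3 of 4 IMR-32 arrays above background, and the call was lost without the 72 h array of SK-N-BE(2) (adjusted p = 0.0569), by the methods' t-test with Benjamini-Hochberg adjustment (0.0801) and with normexp background correction (-0.72). LOC400043, a noncoding RNA gene that lies beside the HOXC cluster in the RefSeq annotation (as LINC02381), read -4.14, -4.10, -3.85 and -3.60 against 3.49, 3.75, 3.77 and 3.99, the same order as HOXC9. HOXD10 was not called (line difference 0.65 ± 0.23), and it was higher in IMR-32 on average.

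HOXC9 and HOXC8 were much brighter in the IMR-32 culture labelled FOXP1. There HOXC9 read 2.06, 2.14, 1.77 and 1.53, and HOXC8 was well above background on 4 of 4 arrays at -3.41, -2.97, -3.21 and -3.21. The line difference of HOXC9 was thus -1.76 on the arrays labelled FOXP1, and the difference between both comparisons was -5.69 (adjusted p = 1.99e-10). For HOXC8 it was -4.07 or lower. For HOXC10 the line difference on arrays labelled FOXP1 had a fitted value of -5.49, with 1 of 4 IMR-32 arrays above background. The difference from GFP cells was not called (adjusted p = 0.0808). The gap between the 2 IMR-32 cultures in HOXC9 and HOXC8 was already there on the 0 h arrays.

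Sympathoadrenal and catecholamine genes leaned to SK-N-BE(2). Of 28 tested, 5 were called higher in IMR-32 and 13 higher in SK-N-BE(2) (median -0.80, and -0.51 with normexp). Genes of noradrenaline synthesis, storage and uptake were among those lower in IMR-32. Beside TH, DBH and CYB561, the vesicular monoamine transporter SLC18A1 read -0.66, -1.04, -0.68 and 0.91 in SK-N-BE(2) and was above background on only 2 of 4 IMR-32 arrays (line difference -5.96 or lower). SCG5, a granule chaperone, differed by -6.29 ± 0.24. The noradrenaline transporter SLC6A2 (-4.12 ± 0.18) and the transcription factor TFAP2B (-5.25 ± 0.30), both named after their values were seen, were lower on every IMR-32 array. TFAP2B read -1.95, -1.42, -0.60 and -0.67 in IMR-32 against 3.80, 4.24, 4.06 and 4.28 in SK-N-BE(2).

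Some members higher in IMR-32 were named after their values were seen. The α2A-adrenergic receptor ADRA2A differed by 3.92 ± 0.20, SATB1 by 2.69 ± 0.15 and DACH1 by 1.95 ± 0.28. ISL2, a LIM homeobox factor, was above background in IMR-32 alone (at least 10.6-fold). DACH1 (-2.03) was called higher in SK-N-BE(2) on the arrays labelled FOXP1, where ISL2 was above background on no array of either line. TLX2, the brightest member without a call, read 6.76, 6.34, 5.48 and 5.32 against 6.01, 5.88, 5.52 and 5.25, and the lines overlapped (line difference 0.31 ± 0.33).

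On the arrays labelled FOXP1 the list leaned to SK-N-BE(2) too, with 5 of 28 called higher in IMR-32 and 15 higher in SK-N-BE(2) (median -1.30), but the line difference of 22 of the 28 genes was not the same. TH (0.36), SLC6A2 (0.22), TFAP2B (0.11) and SLC18A1 (-0.43) had line differences near 0 there, and that of DBH was -2.06. SCG5 (-6.54) showed no called difference between both comparisons. Of the 18 calls in GFP cells, 8 were called in the same direction on the arrays labelled FOXP1 and 2 in the opposite one. Over all 1310 GFP calls with a symbol, these counts were 660 and 100.

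Neuropeptides, hormones and their receptors were called on both sides. Of 24 tested, 7 were called higher in IMR-32 and 13 higher in SK-N-BE(2) (83.3% called; median -1.28, and -0.78 with normexp). CRH, corticotropin-releasing hormone, read 5.62, 6.15, 5.89 and 5.58 in SK-N-BE(2) and -8.23, -7.10, -8.45 and -5.85 in IMR-32, where 2 of 4 arrays were above background. Its line difference was -12.24 or lower. SST, somatostatin, differed by -7.25 or lower (1 of 4 IMR-32 arrays above background). NPY was low in IMR-32, and so was its receptor NPY2R, which read 1.57, 1.71, 1.24 and 0.91 in SK-N-BE(2) and was unmeasured in IMR-32. PROK2 was the member with the highest IMR-32 excess among those well above background on all 8 arrays. OPRL1, the nociceptin receptor, was not called (-0.53 ± 0.25). The difference between both comparisons was not called for NPY (-0.21; adjusted p = 0.798). It was called for PROK2 (3.17), for CRH (-4.30 or lower), for NPY2R (-7.47 or lower) and for SST, where no bound could be set.

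Neuronal structure and synapse genes were split. Of 39 tested, 9 were called higher in IMR-32 and 14 higher in SK-N-BE(2) (median -0.79, and -0.41 with normexp). RELN, the secreted guidance protein reelin, read 0.71, 1.06, 0.29 and 0.69 in SK-N-BE(2) and was not above background on any IMR-32 GFP array. Yet on the IMR-32 arrays labelled FOXP1 it read 0.38, -0.29, 0.64 and 0.16, above the SK-N-BE(2) arrays labelled FOXP1. The order of the lines was thus reversed between the 2 pairs of cultures (difference -9.49 or lower). The fitted line difference on the arrays labelled FOXP1 was 2.23. IMR-32 labelled FOXP1 was on average below the SK-N-BE(2) GFP arrays, so the reversal also rested on a lower signal in SK-N-BE(2) labelled FOXP1. The RELN probe was tested only through its SK-N-BE(2) GFP arrays, so a p of the difference is no support. NNAT, the imprinted neuronatin gene (line difference 5.85), and SYT17, a synaptotagmin (5.22 ± 0.18), were higher in IMR-32. NLGN1, a postsynaptic adhesion protein, was at least 10.9-fold higher there. TUBB2A, a neuronal tubulin and the brightest member without a call, read 5.85, 5.71, 5.15 and 5.36 against 5.11, 5.60, 5.41 and 5.24.

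**Figure D3:**
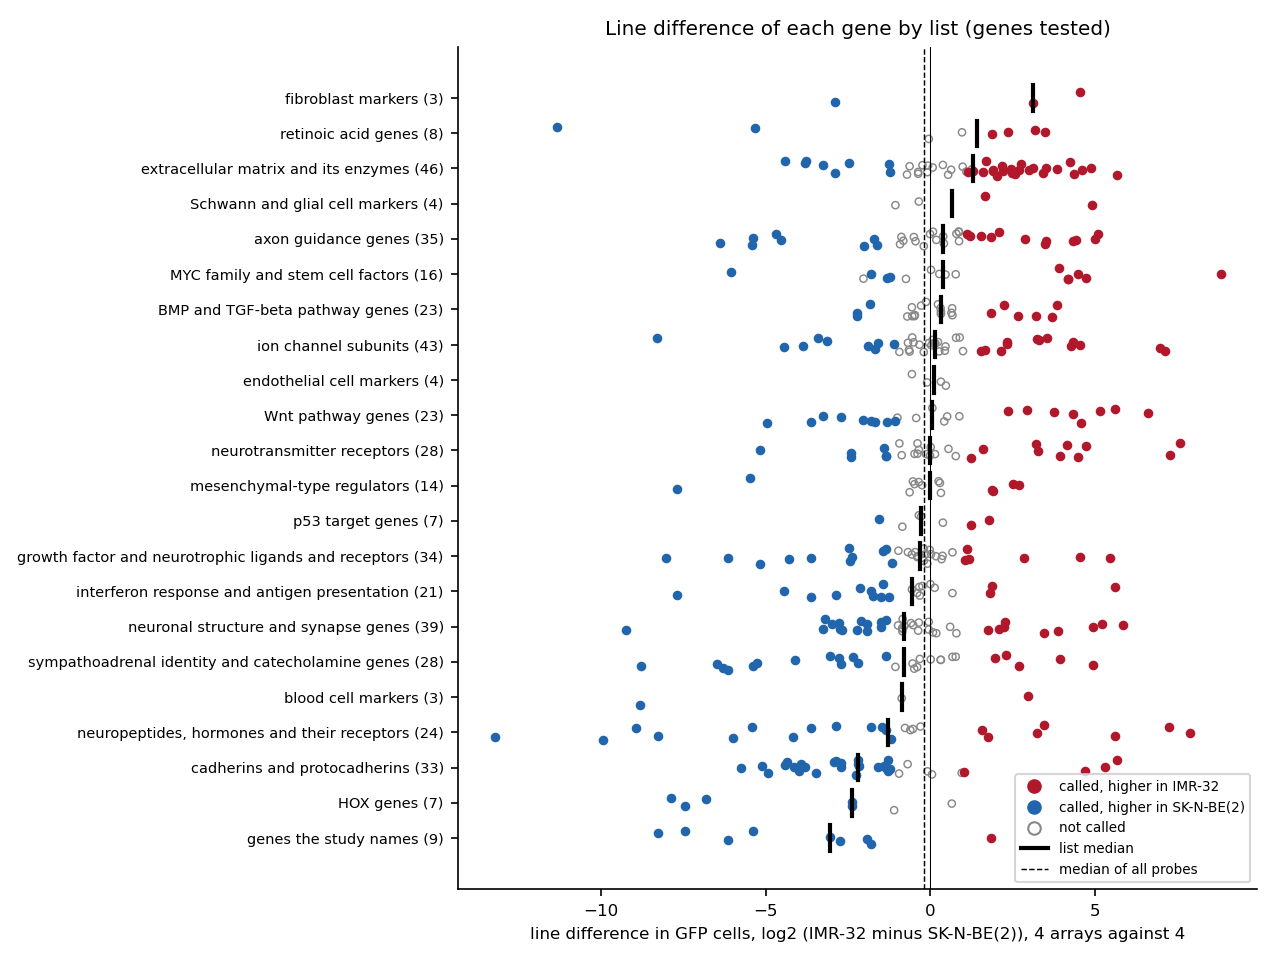
Line difference (log2, IMR-32 minus SK-N-BE(2), GFP cells) of each tested gene in 22 lists, filled where called and open where not, with a bar at the list median and a dashed line at the median of all probes (-0.19). Medians run from -3.05 for the genes the study names to 3.11 for the fibroblast markers, and nearly all lists hold called genes on both sides.

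Ion channel subunits were called in near equal number on both sides. Of 43 tested, 13 were higher in IMR-32 and 9 higher in SK-N-BE(2) (51.2% called; median 0.14). The 2-pore potassium channels KCNK1 and KCNK2 were above background in IMR-32 alone, at least 84.9-fold and at least 32.3-fold. CACNB4, a calcium channel β subunit, was at least 7.55-fold higher in IMR-32. KCNK1 was not above background on the IMR-32 arrays labelled FOXP1, nor on more than 1 of 4 SK-N-BE(2) arrays of that label. Its excess was thus seen in the GFP culture alone, and no bound could be set. The probe was tested only because of its IMR-32 GFP arrays, so a p of the difference is no support. CACNA2D2 was not called (0.44 ± 0.32).

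Transmitter receptors showed a like split, with 10 of 28 higher in IMR-32 and 6 higher in SK-N-BE(2) (median 0.00). GLRB, the glycine receptor β subunit, read -1.21, -1.07, -0.44 and -0.91 in IMR-32, GABRA5 read -0.82, -1.09, -0.68 and -0.82, and GRIA2, an AMPA receptor subunit, read -2.06, -2.72, -1.68 and -2.16. None of the 3 was above background on a SK-N-BE(2) GFP array, with lower bounds of 43.4-fold, 45.1-fold and 17.9-fold. P2RX5 was not called (0.14 ± 0.18).

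Most of the cadherins and protocadherins tested were called lower in IMR-32 GFP cells: 24 of 33 were higher in SK-N-BE(2) and 4 higher in IMR-32 (84.8% called; median -2.19, and -1.01 with normexp). Protocadherins of the clustered families sit in tandem on chromosome 5, and single neurons express different sets of them, which label the cell surface. Among the 12 β genes, a part picked after the values were seen, 11 were called and all were higher in SK-N-BE(2) (median -3.45, or -2.98 with the gene measured in 1 line alone at its lower bound). PCDHB16 read -5.55, -6.02, -5.99 and -6.04 in IMR-32 and -0.48, 0.09, -0.53 and 0.34 in SK-N-BE(2). The groups were far apart, with a line difference of -5.75 ± 0.24 (54.0-fold; adjusted p = 6.87e-08). PCDHB2 read -4.55, -4.93, -4.84 and -5.03 against -0.44, -0.35, -0.62 and -0.32 (21.2-fold). PCDHB8 differed by -4.36 ± 0.15 and PCDHB9 by -4.15 ± 0.37. PCDHB6 was at least 8.29-fold higher in SK-N-BE(2).

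Because these β genes moved together, their promoters were searched for a shared run of 10 bases. RefSeq promoters (GRCh38.p14) reach from 250 bases before to 50 bases after the start. The most shared run over the 14 β promoters was GGTGGCGCTG, found in 12 of them. On either strand (CAGCGCCACC on the other) it occurs in 97 of 35116 promoters (0.276%). Of the 9 β genes on the array with a promoter in the table, 8 held it, each time followed by a c. PCDHB14, which differs from it in the last base (ggtggcgcta), was called too. Capitals mark the run in 3 promoters, picked after their values were seen and all on the + strand, at chr5:141182137-141182436 for PCDHB16, chr5:141094365-141094664 for PCDHB2 and chr5:141177540-141177839 for PCDHB8.
PCDHB16: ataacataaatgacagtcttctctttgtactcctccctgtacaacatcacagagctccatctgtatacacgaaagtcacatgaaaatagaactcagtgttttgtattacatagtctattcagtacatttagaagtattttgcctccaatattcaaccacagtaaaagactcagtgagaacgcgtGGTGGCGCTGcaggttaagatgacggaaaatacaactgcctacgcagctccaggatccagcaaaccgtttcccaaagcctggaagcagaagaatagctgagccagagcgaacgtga
PCDHB2: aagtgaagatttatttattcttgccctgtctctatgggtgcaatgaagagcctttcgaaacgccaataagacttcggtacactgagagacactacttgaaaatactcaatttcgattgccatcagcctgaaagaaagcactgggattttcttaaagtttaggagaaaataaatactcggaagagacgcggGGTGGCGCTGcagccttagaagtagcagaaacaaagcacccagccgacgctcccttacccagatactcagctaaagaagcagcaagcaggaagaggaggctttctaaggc
PCDHB8: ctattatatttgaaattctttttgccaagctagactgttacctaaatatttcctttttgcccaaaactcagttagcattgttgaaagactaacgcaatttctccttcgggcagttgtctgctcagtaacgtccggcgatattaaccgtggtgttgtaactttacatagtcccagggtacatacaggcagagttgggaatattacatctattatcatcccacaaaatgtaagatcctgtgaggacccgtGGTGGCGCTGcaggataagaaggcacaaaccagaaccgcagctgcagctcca
The match is a description of these letters and does not show what binds there.

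In the cultures labelled FOXP1 the β genes had a median line difference of -0.24, against -0.20 over all probes tested. Even so, 4 of the 12 were called higher in SK-N-BE(2) there, PCDHB8 (-1.75) among them, and 1 higher in IMR-32. Of the GFP calls, 3 were called in the same direction in both comparisons and 1 in the opposite one. The difference between both comparisons was called for 10 of the 12 β genes. PCDHB16 read -0.75, -0.57, -0.46 and -0.08 on the IMR-32 arrays labelled FOXP1 and PCDHB2 read 0.33, 0.65, 0.59 and 0.73, both far above the IMR-32 GFP arrays from 0 h on. The exceptions were PCDHB6, unmeasured in both IMR-32 cultures, and the pseudogene PCDHB17P, which was not called in GFP cells. Outside the β family, FAT1, an atypical cadherin, read 1.01, 0.46, 0.21 and 0.40 in IMR-32 against -5.42, -5.24, -5.45 and -4.46 (line difference 5.67), and PCDH8 differed by 5.30 ± 0.30. The other 2 members higher in IMR-32 were CDH4 (at least 15.6-fold) and CDH18 (1.01 ± 0.31), both named after their values were seen. The lines overlapped at CDH18, and its call was lost without 1 of 4 arrays in turn (IMR-32 at 24 or 72 h, SK-N-BE(2) at 0 or 72 h; differences from 0.73 to 0.97), by the methods' t-test with Benjamini-Hochberg adjustment (adjusted p = 0.0669) and with normexp background correction (0.90). CDH2, or N-cadherin, did not pass the test: it read 1.76, 1.40, 1.48 and 1.42 against 1.54, 1.51, 1.67 and 1.70, and the lines overlapped.

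**Figure D4:**
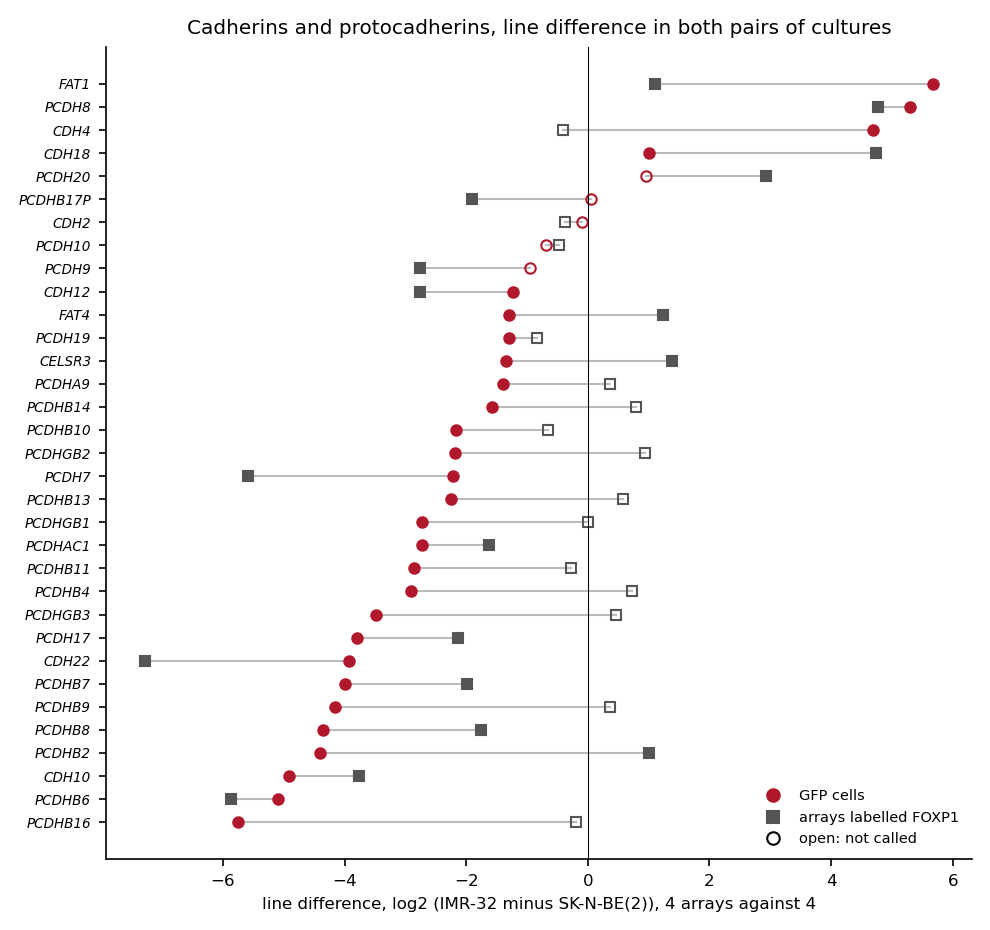
Line difference (log2) of the 33 tested cadherins and protocadherins in GFP cells (circles) and on arrays labelled FOXP1 (squares), 4 arrays against 4, filled where called. Of the 12 β genes, 11 lie below 0 and are filled in GFP cells (median -3.45), and on the arrays labelled FOXP1 their median is -0.24.

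Axon guidance genes had 12 of 35 members higher in IMR-32 and 8 higher in SK-N-BE(2) (median 0.39). SLITRK5, a neurite-regulating membrane protein, had a mean of -1.41 ± 0.41 (SD, n = 4) in SK-N-BE(2) and was unmeasured in IMR-32 GFP cells (at least 35.8-fold). The semaphorin receptors PLXNA2 (at least 11.8-fold) and PLXNA4A (line difference -4.44 or lower, 1 of 4 IMR-32 arrays above background) were lower in IMR-32 as well. EPHA7, an ephrin receptor, was higher in IMR-32 by at least 4.55, with 3 of 4 SK-N-BE(2) arrays above background, and by 5.29 on the arrays labelled FOXP1. PLXNB2 was not called (0.08 ± 0.21).

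Extracellular matrix genes and their enzymes leaned to IMR-32. Of 46 tested, 24 were called higher in IMR-32 and 8 higher in SK-N-BE(2) (69.6% called; median 1.28, or 1.04 with genes measured in 1 line alone at their lower bound, and 0.57 with normexp). FBLN2, a basement membrane fibulin, had a mean of -0.46 ± 0.55 (SD, n = 4) in IMR-32 and -6.10 ± 0.54 (n = 4) in SK-N-BE(2), where 2 of 4 arrays were above background. That is a line difference of at least 5.59. MFAP2, a microfibril protein, read -0.66, -0.47, -0.20 and 0.29 in IMR-32 and -5.07, -5.22, -5.40 and -3.74 in SK-N-BE(2) (line difference 4.60 ± 0.37), and LTBP1, which holds latent TGF-β in the matrix, was at least 19.3-fold higher in IMR-32. EDIL3, an integrin ligand, was at least 4.25-fold higher in SK-N-BE(2). SULF2, a heparan sulfatase, was bright in both lines and its line difference of -0.71 ± 0.18 did not reach 2-fold. On the arrays labelled FOXP1 the list median was 0.00, with 16 members called higher in IMR-32 and 12 higher in SK-N-BE(2).

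Wnt pathway genes were called on both sides, 8 of 23 higher in IMR-32 and 9 higher in SK-N-BE(2) (median 0.06). AXIN2, a common target and inhibitor of the pathway, read -0.18, -0.06, -0.38 and -0.08 in IMR-32 and -5.63, -5.65, -5.18 and -4.85 in SK-N-BE(2). Its line difference of 5.15 ± 0.21 (35.6-fold; adjusted p = 6.92e-08) stood beside the modulators DACT1 (at least 53.3-fold) and RSPO2 (at least 19.5-fold), which were above background in IMR-32 alone. SOSTDC1, a secreted antagonist, was lower in IMR-32 by a line difference of -4.40 or lower (1 of 4 IMR-32 arrays above background). On the arrays labelled FOXP1, AXIN2 (2.49) and DACT1 (fitted value 5.34, 3 of 4 SK-N-BE(2) arrays above background) kept their direction, as did SOSTDC1. Neither SOSTDC1 nor RSPO2 was above background on an IMR-32 array. APC2 was not called (0.42 ± 0.31).

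In the BMP and TGF-β list most members were not called: 6 of 23 were higher in IMR-32 and 3 higher in SK-N-BE(2) (39.1% called; median 0.31). LEFTY1, an antagonist of nodal signals, differed by at least 3.29 (1 of 4 SK-N-BE(2) arrays above background) and CHRDL2, a BMP antagonist, by 3.69 ± 0.20. BMP2 and FST were above background in IMR-32 alone, each at least 2.13-fold, and both calls were lost with normexp background correction (0.60 and 0.52). The 3 genes higher in SK-N-BE(2), named after their values were seen, were the signal transducer SMAD1 (-2.24 ± 0.16), its target ID3 (-2.22 ± 0.41) and the ligand TGFB1 (-1.84 ± 0.29). BAMBI, a decoy receptor, read 3.19, 3.46, 2.84 and 2.81 against 3.00, 2.78, 2.81 and 2.46 and was not called.

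Retinoic acid genes were called on both sides. The retinol transporter STRA6 was higher in SK-N-BE(2): it read 2.20, 1.95, 1.61 and 2.09 there and -3.24, -3.22, -3.53 and -3.45 in IMR-32 (line difference -5.32 ± 0.18; 40.0-fold). Called higher in IMR-32 were the dehydrogenase ALDH1A3 (2.36 ± 0.30), the receptor RARB (at least 2.19-fold), the retinoid-responsive RARRES2 (at least 1.78, 3 of 4 SK-N-BE(2) arrays above background) and the hydroxylase CYP26B1 (at least 4.97-fold). In all, 4 of 8 were called higher in IMR-32 and 2 lower (median 1.41, or 1.05 at the bounds, and 0.71 with normexp). ALDH1A3 and RARRES2 were named after their values were seen. With normexp background correction the calls of RARB (0.70), RARRES2 (0.72) and CYP26B1 (0.96) were lost. RARRES1 was just under the 2-fold limit (0.96 ± 0.18), and it passed in some alternatives, with 1.03 after scaling to the median. On the arrays labelled FOXP1, 3 of the 8 were called, each of them higher in SK-N-BE(2).

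Genes of the MYC family, stem cell factors and imprinted genes had 6 of 16 members higher in IMR-32 and 4 higher in SK-N-BE(2) (median 0.37). LMO3, a LIM-only cofactor studied in neuroblastoma, read -0.07, 0.15, 0.28 and 0.48 in IMR-32 and -4.98, -4.40, -4.30 and -4.32 in SK-N-BE(2) (line difference 4.71 ± 0.21). On the arrays labelled FOXP1 the order turned round: no IMR-32 array was above background and all 4 of SK-N-BE(2) were, for a difference between both comparisons of at least 8.99 (adjusted p = 4.70e-10). The imprinted MEST (4.49 ± 0.39) was higher in IMR-32, the antisense transcript IGF2AS lower (-6.06 ± 0.19). The other 3 lower members, named after their values were seen, were MYC (-1.15 or lower, 1 of 4 IMR-32 arrays above background), PEG10 (-1.31 ± 0.25) and SOX4 (-1.21 ± 0.19). The MYC call was lost with normexp background correction (-0.44) and that of SOX4 after quantile normalization (-0.88) and in the authors' table (-0.84). ODC1, a polyamine enzyme and MYC target, read 6.75, 6.49, 6.21 and 6.08 against 6.34, 6.43, 6.52 and 6.14, and the lines overlapped. MYCN, which is amplified in both lines, had no probe with a symbol.

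Growth factor and neurotrophic genes had 6 of 34 members higher in IMR-32 and 11 higher in SK-N-BE(2). The list median was -0.31, but -0.11 after quantile normalization and -0.09 with normexp. FGF13 read 0.97, 1.23, 1.22 and 1.56 in SK-N-BE(2) and was above background on 1 of 4 IMR-32 arrays (line difference -7.59 or lower). FGF20 was at least 8.99-fold higher in SK-N-BE(2), FGF10 at least 10.9-fold higher in IMR-32. FGF13 and FGF20 were again called higher in SK-N-BE(2) on the arrays labelled FOXP1, with no IMR-32 array above background, and the FGF10 excess was not called there. IGF2R was not called (-0.09 ± 0.19).

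Genes of the interferon response and antigen presentation were more often higher in SK-N-BE(2), 10 of 21 against 3 higher in IMR-32 (61.9% called; median -0.56, but -0.30 after quantile normalization and -0.28 with normexp). IFI16, a nuclear DNA sensor, read 0.71, 0.87, 0.65 and 0.60 in SK-N-BE(2) and was above background on 1 of 4 IMR-32 arrays (line difference -7.03 or lower). CASP4, an inflammatory caspase, differed by -3.75 or lower (1 of 4 IMR-32 arrays above background) and HLA-DOB by -3.61 ± 0.32. The 3 genes higher in IMR-32 were the ubiquitin ligase HERC5 (at least 12.2-fold), ISG20 (1.80 ± 0.21) and PARP12 (1.86 ± 0.29), the last pair named after their values were seen. HERC5 was not above background on any IMR-32 array labelled FOXP1. EIF2AK2 was not called (-0.34 ± 0.18). On the arrays labelled FOXP1, 1 of the 21 was called higher in IMR-32 and 3 higher in SK-N-BE(2) (median -0.26, against -0.20 over all probes). Of all probes tested, 24.4% were called on those arrays.

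Of the p53 target genes, 7 were tested: DRAM1 (1.79 ± 0.32) and DDB2 (1.22 ± 0.21) were higher in IMR-32, TP53I3 (-1.56 ± 0.28) was higher in SK-N-BE(2), and 4 were not called. The list median was -0.28, but -0.02 after quantile normalization and -0.03 with normexp. DDB2, a DNA damage sensor, had a mean of 1.75 ± 0.23 (SD, n = 4) in IMR-32 and 0.52 ± 0.34 in SK-N-BE(2) with no overlap, and its call was lost without the 0 h arrays (0.99). TP53INP1 was not called (-0.35 ± 0.22). With the arrays labelled FOXP1, 3 of the 7 were called higher in IMR-32 and 1 higher in SK-N-BE(2) (median 0.60). CDKN1A and MDM2 had no probe with a symbol.

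Regulators of the mesenchymal type showed no common direction, with 4 of 14 called higher in IMR-32, 2 higher in SK-N-BE(2) and a median of 0.00. SNAI1 read 2.80, 2.54, 2.11 and 2.23 in IMR-32 and -0.11, -0.16, -0.51 and 0.45 in SK-N-BE(2) (line difference 2.50 ± 0.24). RUNX1 was higher by at least 2.58, with 3 of 4 SK-N-BE(2) arrays above background. KLF4 (1.88 ± 0.21) and TRIL (1.90 ± 0.28) were named after their values were seen, and the call of TRIL was lost with normexp background correction (0.94). NT5E, the surface enzyme CD73, was lower (-4.81 or lower, 2 of 4 IMR-32 arrays above background), as was IFI16. JUN was not called (0.25 ± 0.23). The arrays labelled FOXP1 gave another picture: 5 of the 14 were called higher in IMR-32 and 8 higher in SK-N-BE(2) (median -1.93), and 11 line differences differed between both comparisons.

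Markers of other cell types were looked at across whole lists. Of 5 Schwann and glial markers, 4 were tested and 2 were called, both higher in IMR-32: MBP (at least 3.39) and MIA (at least 1.59), each above background on 1 of 4 SK-N-BE(2) arrays. Their summed signal over the 75th percentile, in which each probe counts by its own response, was 0.329, 0.290, 0.418 and 0.501 in IMR-32 and 0.280, 0.260, 0.191 and 0.395 in SK-N-BE(2). L1CAM, which is also in the list of neuronal structure and synapse genes, had the brightest probe in both lines. It was not called (-0.35 ± 0.27). CDH19 was above background on no array. The arrays labelled FOXP1 gave 0 higher in IMR-32 and 2 higher in SK-N-BE(2) (median -1.57), and the line difference of all 4 differed between both comparisons. In GFP cells the lines overlapped at MIA, which lost its call with normexp background correction (0.53). Of 10 endothelial markers, 4 were tested and 0 were called by limma in either direction, 0 of them at an unadjusted p under 0.05 (EGFL7, with the brightest probe, 0.47 ± 0.35). Their sum ran from 0.341 to 0.477 in IMR-32 and from 0.259 to 0.604 in SK-N-BE(2), and CD34, TEK and SELP were above background on none of the 8 arrays.

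Of 12 blood cell markers, 3 were tested. LCP1, an actin-bundling protein, read 2.02, 2.48, 2.04 and 2.56 in SK-N-BE(2) and was above background on 1 of 4 IMR-32 arrays (line difference -8.48 or lower). CD72 was at least 2.97-fold higher in IMR-32, a call lost with normexp background correction (0.76), and CD33 did not reach 2-fold by the fit (-0.87 ± 0.24, 2 of 4 IMR-32 arrays above background). The summed signal was 4.12, 5.66, 4.22 and 6.02 in SK-N-BE(2), nearly all from the LCP1 probe, and 0.0764, 0.130, 0.118 and 0.122 in IMR-32. The defining leukocyte markers PTPRC, CD53 and CD48 were above background on no array of either line. Of 5 fibroblast markers, 3 were tested and all 3 were called: PDGFRA (4.54 ± 0.28) and LOX (3.11 ± 0.35) were higher in IMR-32 and DCN (-2.90 ± 0.24) was higher in SK-N-BE(2) (median 3.11). Their sum ran from 0.817 to 1.33 in IMR-32, mostly from the PDGFRA probe, and from 0.215 to 0.373 in SK-N-BE(2), mostly from the DCN probe. In cultured cells of 1 line, fewer cells of a kind and less RNA per cell cannot be told apart, and the part of other cells in these results was not tested.

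The 2 pairs of cultures can be set side by side over all probes. Among GFP calls with a symbol, 660 of 1310 were called in the same direction on the arrays labelled FOXP1 and 100 in the opposite one. For NPY, SCG5, GLRB and NELL2 the difference between both comparisons was not called. It was -9.49 or lower for RELN, -9.02 or lower for PPP1R9A and at least 8.99 for LMO3. PPP1R9A, a neuronal actin-binding protein, read 2.54, 2.16, 2.48 and 2.46 on the IMR-32 arrays labelled FOXP1, and none of the IMR-32 GFP arrays was above background. For RELN, PPP1R9A and LMO3 the SK-N-BE(2) cultures differed less than the IMR-32 cultures, but for RELN they were not alike either. The other lists stood as follows on the arrays labelled FOXP1, with members called higher in IMR-32 and in SK-N-BE(2) and, in parentheses, the median and the members whose line difference differed between both comparisons: HOX genes 1 and 3 (-0.86; 3 of 7), neuropeptides, hormones and their receptors 5 and 10 (-0.85; 14 of 24), neuronal structure and synapse genes 10 and 17 (-0.46; 25 of 39), ion channel subunits 11 and 10 (-0.04; 14 of 43), transmitter receptors 9 and 8 (-0.07; 17 of 28), cadherins and protocadherins 7 and 11 (-0.27; 23 of 33), axon guidance genes 12 and 14 (-0.35; 28 of 35), Wnt pathway genes 5 and 9 (-0.76; 15 of 23), BMP and TGF-β genes 4 and 9 (-0.43; 11 of 23), growth factor and neurotrophic genes 5 and 15 (-0.65; 13 of 34), MYC family and stem cell genes 2 and 9 (-1.20; 12 of 16), endothelial markers 0 and 1 (-0.40; 1 of 4), blood cell markers 0 and 1 (-0.78; 2 of 3), fibroblast markers 2 and 1 (1.24; 1 of 3) and the genes the study names 1 and 5 (-1.52; 7 of 9). No list was tested as a whole, and 50.9% of all probes with a symbol differed so. The plot of both line differences shows the named genes beside all probes.

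**Figure D5:**
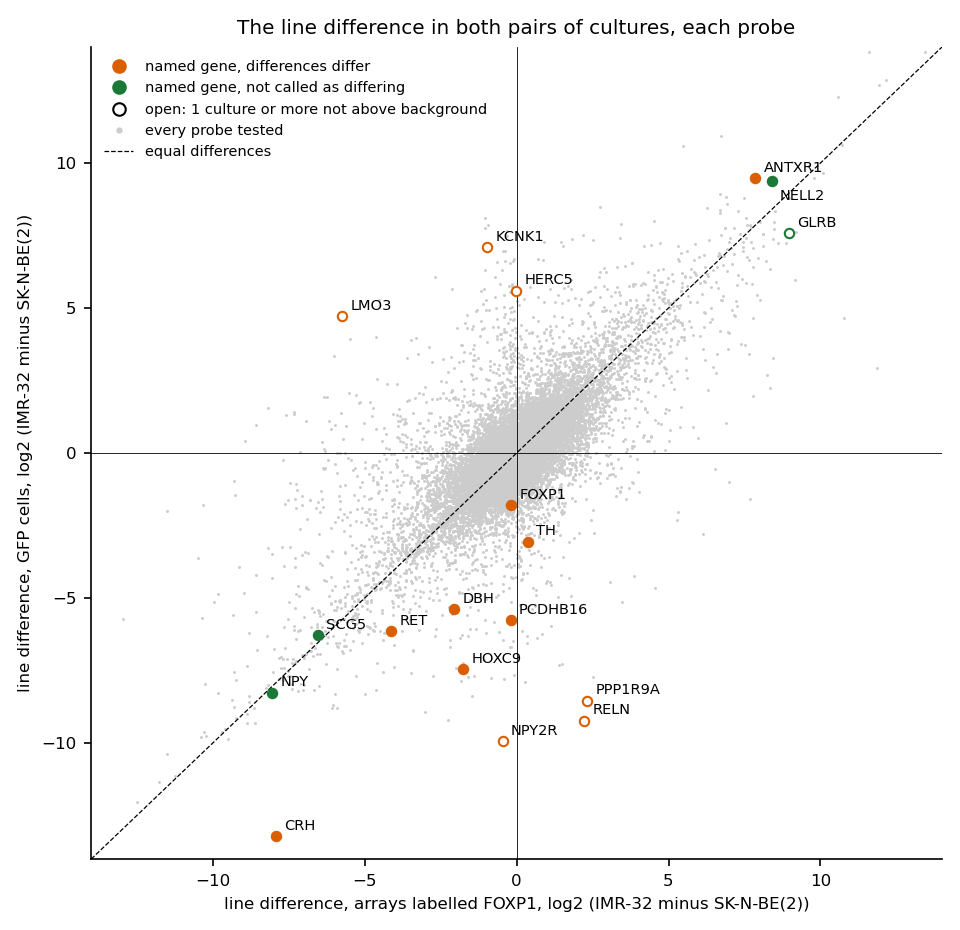
Line difference (log2, IMR-32 minus SK-N-BE(2)) of every tested probe in GFP cells (vertical) against arrays labelled FOXP1 (horizontal), with 18 named genes coloured by whether the 2 line differences differed. Open circles mark genes that were not above background on any array of at least 1 culture, so their place is a fitted value and not a measured one. NPY (-8.26 and -8.05) lies on the dashed line of equal differences, and HOXC9 (-7.45 and -1.76) and TH (-3.05 and 0.36) lie off it.

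The line difference did not change with time in a way the test could call. With limma, the slope of the 4 line differences on hours in doxycycline called 0 of 34004 probes (0%). At an unadjusted p under 0.05 there were 2677, or 3296 after quantile normalization, and contrasting the later times with 0 h gave 1108. With normexp background correction 258 probes were called, and the cause was not tested. In each line the 0 and 12 h arrays shared a slide, as did the 24 and 72 h arrays. Early and late times thus cannot be told apart from slide.

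With 1 transduced population for each line and transgene, the tests measure the spread between its time points, which may be technical, and not between separate transductions. Each slide held 1 line and each line spanned 2 slides, so slide and line cannot be told apart. With normexp background correction 5469 probes were called between the lines, fewer than the 8585 above.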

How the data were processed

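The deposited files hold scanner intensities of one-colour arrays as extracted by the authors, and the authors' table holds quantile-normalized intensity. Processed signals were taken as log2 values minus the 75th percentile of each array. Probes whose signal stood well above background in 4 or more of the 8 arrays were tested with limma 3.58.1 (lmFit and eBayes, two-sided) in R 4.3.3, IMR-32 against SK-N-BE(2), with Benjamini-Hochberg adjustment over 34004 probes. The call limits were 0.05 for the adjusted p and 2 for the fold change. The same test was run on the arrays labelled FOXP1, as a contrast of both comparisons, and as a slope on hours. Each took the same probes, chosen on the 8 GFP arrays. Lower bounds set the bright mean against the dim arrays' lowest signal well above background, or their own signal where that was higher. A difference between both comparisons with arrays not above background was bounded alike, as was a line difference with some dim arrays above background; the former only if these were only in groups where a lower signal makes it larger. Symbols came from the study's supplementary list: 3496 entries were used, 3124 matched to RefSeq by accession and 133 by symbol. Named genes were those the study names with the markers, the 12 highest and 12 lowest line differences among symbol probes above background on all 8 arrays without overlap, the 6 highest bounds each way, up to 4 called members and the brightest uncalled member of each list, and 2 unnamed probes each way; some genes taken by this rule are not printed. Members and lists were chosen with earlier results of these data known. Alternatives were other scalings and filters, the authors' table, normexp (offset 50), block and slide terms, and leaving out each array. Tables and plots used Python 3.11.15, numpy 2.4.6, pandas 2.3.3 and matplotlib 3.10.9. The steps were tested on simulated data. The number of arrays limits the precision. Y-linked genes and XIST were left out.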

Additional observations from a re-analysis of the deposited data

Results flagged for a closer look

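For 94 of the 147 named genes that were tested, the line difference in GFP cells differed from that on the arrays labelled FOXP1 by limma's test of the difference. The share was 10.2% over all 34004 probes tested and 50.9% over the 2515 with a symbol, which the study chose by comparing FOXP1 with GFP cells on these arrays. Values in parentheses are the first line difference minus the second, on the log2 scale, unless another is named. For 55 of these, all 16 arrays were above background and the value is measured. Genes the study names and markers were DBH (-3.32), FOXP1 (-1.60), RET (-2.02), HOXC9 (-5.69), TH (-3.40), NEFL (-1.04) and MAP2 (-1.22). Among the lead genes higher in SK-N-BE(2) the differences were those of CYB561 (-2.70), LOC400043 (-4.92), PTPRR (-5.41), RGS5 (-6.07), NDRG2 (-1.09) and SH3BGRL (-2.58). Lead genes higher in IMR-32 gave ANTXR1 (1.63), DHRS2 (2.52), PHLDB2 (2.87), PXDN (1.71) and PROK2 (3.17). Lead genes of either direction were picked by their GFP line difference, which favours these signs. Sympathoadrenal and synapse genes not yet given were SYT17 (2.71), ADRA2A (4.58), SATB1 (2.15), DACH1 (3.98), SLC6A2 (-4.34) and TFAP2B (-5.36). The protocadherins and cadherins gave PCDHB16 (-5.56), PCDHB9 (-4.51), PCDHB2 (-5.41), PCDHB8 (-2.61) and CDH18 (-3.73). Signalling genes gave AXIN2 (2.66), SMAD1 (-2.39), TGFB1 (-1.42), STRA6 (-1.24) and ALDH1A3 (2.43). For p53, interferon, stem cell, mesenchymal-type and fibroblast genes the values were TP53I3 (-2.17), HLA-DOB (-4.52), ISG20 (1.75), MEST (6.19), SOX4 (-1.19), PEG10 (-1.24), SNAI1 (1.12), KLF4 (2.65) and LOX (1.87). Genes not called in GFP cells whose line difference still differed were JUN (-1.30), TUBB2A (1.45), OPRL1 (1.45), P2RX5 (1.12), PLXNB2 (1.08), BAMBI (3.95), TP53INP1 (-2.07), ODC1 (1.31), L1CAM (1.55) and EGFL7 (2.02). The unnamed probes were UKv4_A_23_P218331 (-2.64) and UKv4_A_24_P208595 (2.23). For 16 genes some arrays were not above background and the value is a bound. It was this low or lower for NPY2R (-7.47), RELN (-9.49), PPP1R9A (-9.02), HOXC8 (-4.07), HOXC6 (-0.83), SLC18A1 (-5.52), CRH (-4.30), SLITRK5 (-5.84), PLXNA4A (-3.17) and LCP1 (-2.57), and at least this high for EPHX2 (0.86), SLC25A24 (2.99), FBLN2 (3.81), LMO3 (8.99), MIA (2.82) and TRIL (4.76). The bounds of EPHX2 and HOXC6 lie under 2-fold. NPY2R, RELN, PPP1R9A, HOXC8 and SLITRK5, among others, were tested only through the GFP arrays of the line where they were high. A p would be no support for these. For 23 genes no bound could be set, so the direction of the fit is given with the adjusted p of the test in parentheses. Some of them, KCNK1, ISL2 and HERC5 among these, were tested only through the GFP arrays of the line where they were high. For those the p describes the fit and is no support for a difference. The fit was lower for IFI16 (0.00119), SST (2.28e-05), GRIA2 (0.00423), PLXNA2 (0.00279), SOSTDC1 (0.009) and FST (0.0165). It was higher for SPINT2 (0.0202), FAT1 (3.55e-06), NEUROG2 (0.000328), LOC730125 (2.3e-09), KCNK1 (2.31e-09), GABRA5 (4.32e-08), DACT1 (0.00401), RSPO2 (1.74e-05), CHRDL2 (1.43e-07), RARB (0.0278), HERC5 (1.04e-06), FGF10 (0.00214), MBP (6.27e-05), CD72 (0.0469), ISL2 (9.41e-08), CDH4 (0.000124) and RARRES2 (0.000846).

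On 8 of 236 groups of 4 arrays, 1 array stood far from the other 3 by Dixon's test. Chance alone gives about 1 in 20 such groups. In IMR-32 GFP cells these were PCDHB16 at 0 h (-5.55, the others from -6.04 to -5.99) and ISG20 at 12 h (1.44, the others from 1.06 to 1.12). In SK-N-BE(2) GFP cells the 0 h array was low for LMO3 (-4.98, the others from -4.40 to -4.30) and PDGFRA (-5.33, the others from -4.74 to -4.67). The 72 h array was high for PCDH8 (-4.94, the others from -6.05 to -5.96) and ALDH1A3 (-3.07, the others from -4.36 to -4.24), and low for the unnamed probe UKv4_A_23_P218331 (3.06, the others from 3.63 to 3.71). CHRDL2 was high at 24 h (-4.81, the others from -5.52 to -5.40).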

How the results depend on the processing

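The count of probes called between the lines stayed between 8208 and 8800 after quantile normalization, median scaling, in the authors' table, with all 24 arrays in 1 fit, without the 0 h arrays, with slide as a random block and with time point as a replicate block (8800). The t-test of the study's methods gave 7877 with Benjamini-Hochberg adjustment and 8438 at an unadjusted p, and no filter on dim probes gave 9094 of 43291. Leaving out each array in turn gave 8226 to 8895. Normexp background correction gave 5469 calls, 5375 of them among the 8585, and 4297 on the arrays labelled FOXP1, 1372 for the difference between both comparisons and 258 for the change over time. The cause was not tested. No called probe was called in the other direction under any of these settings. Of 147 named genes tested, 15 lost their call in at least 1 setting and 1 gained one, and none reversed. Normexp ended 13 of these calls. List medians shrank with normexp too, by over 1.5 times in most lists whose median was at least 0.5 either way. Besides those given in the report, that of the Schwann and glial markers went from 0.65 to 0.14, that of the blood cell markers from -0.87 to -0.20 and that of the fibroblast markers from 3.11 to 1.95. For the genes the study names it was -3.05 and -2.89. A filter that asked for signal above background on each of the 8 arrays left 29087 tested and 6329 called. Time points of the 2 lines paired weakly at most. Correlations of same-time residuals ran from -0.0789 to 0.297, and those of different times from -0.225 to 0.155. The highest were same-time pairs, at 12 h (0.297) and 72 h (0.235). Dim probes limit the folds, which is why genes measured in 1 line alone carry lower bounds. Each line has 1 transduced population with GFP, so no spread between such populations was measured, and the symbols cover only the study's list.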
